A study of Drosophila melanogaster with 18 samples.

Results

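The control fat body of the third instar larva was sequenced in 6 of the 18 libraries of this *Drosophila melanogaster* series, 3 from *dcg-Gal4/+* larvae and 3 from larvae carrying *lacZ* RNAi under the same driver. These 6 were taken by their labels, with no measured value used. *dcg-Gal4* drives transgenes in the fat body. The *dcg-Gal4/+* larvae came from a cross to the *w1118* strain and carried the driver with no RNAi. The *lacZ* RNAi larvae expressed double-stranded RNA against a bacterial gene that flies lack. Each library was described by the study as polyA RNA pooled from 10 male fat bodies, so the replicates are pools of larvae and not single animals. The larvae ate standard cornmeal food and received no treatment, and their ages in hours are not given in the labels. The *dcg-Gal4/+* libraries were deposited in 1 table with *4EHP* RNAi (3 libraries) and the *lacZ* RNAi libraries in another with *NELF-E* RNAi (3 libraries). The study's methods put the *NELF-E* RNAi crosses at a lower temperature than all other crosses, which read literally include *lacZ* RNAi, but for a separate experiment on developmental timing its *lacZ* RNAi controls are described at the lower temperature. Which of these applied to the *lacZ* RNAi larvae sequenced is not given. Table, genotype and possibly temperature therefore cannot be told apart in the comparison of the control groups.

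The larval fat body is the fly's counterpart of liver and adipose tissue. It stores fat and glycogen, and late in larval life it makes storage proteins in bulk, secretes them into the blood and then takes them up again through a receptor. It is also the main source of antimicrobial peptides. In the fat body these peptides are switched on by the Imd pathway, which senses bacterial peptidoglycan, and by the Toll pathway.

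The values are CPM, the read count of a gene relative to the library's total, set to sum to 1000000. Between 71705192 and 85334437 reads fell on genes in the *dcg-Gal4/+* libraries, and between 151973515 and 173606498 in the *lacZ* RNAi libraries, so a single read is worth less in the second group. One *dcg-Gal4/+* library stood apart. Replicate 3 had 7853 genes above 1 CPM, whereas replicates 1 and 2 had 10697 and 10370 and the *lacZ* RNAi libraries had 10537, 9335 and 9866. On the first principal component, which held 88.8% of the variance of the 500 most variable genes, it lay at 82.1 while the other 5 libraries lay at 2.9 or below. Its correlation with *dcg-Gal4/+* replicates 1 and 2 over all genes was 0.784 and 0.816 on the log2(CPM + 1) scale, below its correlation of 0.914 with *lacZ* RNAi replicate 2.

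*dcg-Gal4/+* replicate 3 also went against the stated sex. *lncRNA:roX1*, an RNA of the dosage compensation complex that males make and females do not, was at 211, 146 and 1.12 CPM in *dcg-Gal4/+* replicates 1, 2 and 3, and at 241, 197 and 84.9 CPM in *lacZ* RNAi replicates 1, 2 and 3. The second such RNA, *lncRNA:roX2*, was at 5.64, 3.49 and 0.042 CPM in *dcg-Gal4/+*, and at 3.81, 4.30 and 3.23 CPM in *lacZ* RNAi. The 11 listed genes of the Y chromosome summed to 104, 64.0 and 0.69 CPM in *dcg-Gal4/+*, against 184, 21.2 and 35.2 CPM in *lacZ* RNAi. All of these male transcripts were thus lowest in this library by a wide margin. *Yp3*, a yolk protein gene of the female fat body, ran the other way at 2.36, 1.75 and 45.6 CPM in *dcg-Gal4/+*, with 1.89, 1.49 and 2.09 CPM in *lacZ* RNAi. The library is therefore called here by its label. The counts of the comparison, the list counts and the differences of some leading genes are given with and without it.

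**Figure D1:**
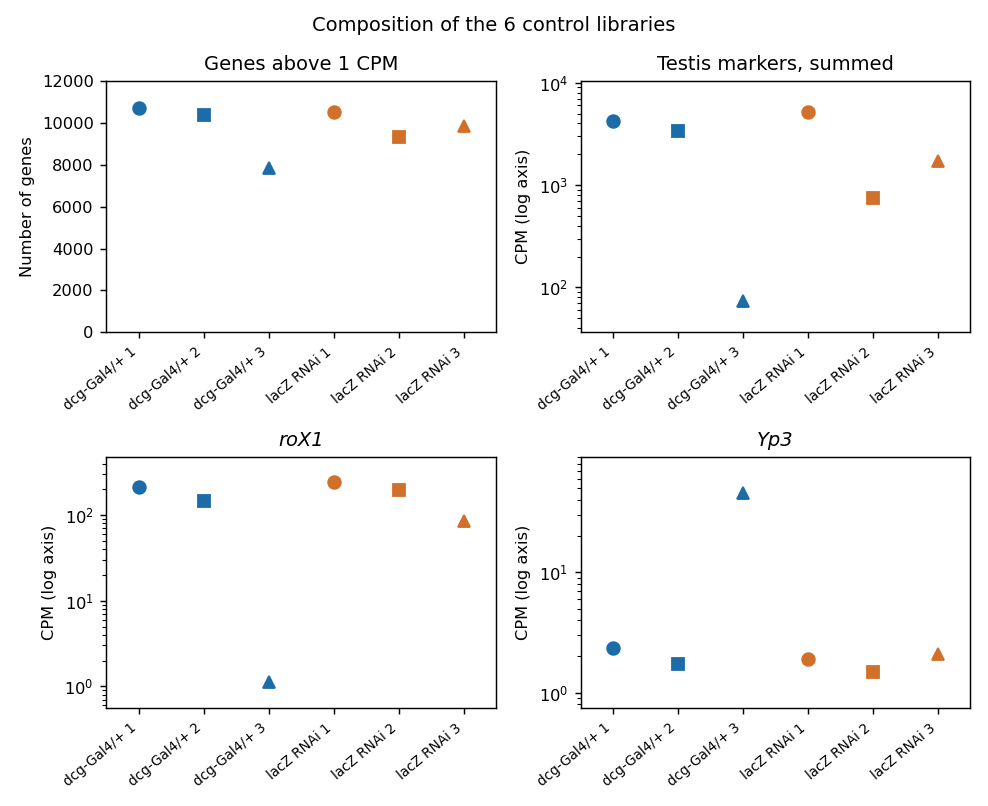
Number of genes above 1 CPM, summed CPM of the testis marker genes, CPM of *roX1* and CPM of *Yp3* in each of the 6 control libraries (blue, *dcg-Gal4/+*; orange, *lacZ* RNAi; 1 point per library; all axes but that of gene number are log). *dcg-Gal4/+* replicate 3 has the fewest genes (7853), the lowest testis sum (72.9 CPM) and the lowest *roX1* (1.12 CPM), and it has the highest *Yp3* (45.6 CPM).

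Markers of other tissues were unevenly spread over the libraries. The larval testis lies embedded in the fat body, and 29 testis markers summed to 4197, 3343 and 72.9 CPM in *dcg-Gal4/+* replicates 1, 2 and 3 and to 5192, 746 and 1722 CPM in *lacZ* RNAi replicates 1, 2 and 3. The sperm tubulin *betaTub85D* led this list, with 809, 689 and 11.2 CPM in *dcg-Gal4/+* and 1038, 149 and 374 CPM in *lacZ* RNAi. No testis marker was at 0 in any library, but 10 of the 29 were under 1 CPM in *dcg-Gal4/+* replicate 3, 1 in *lacZ* RNAi replicate 2 and none in the other 4. The testis sum and the number of genes detected gave the 6 libraries nearly the same order. From whole-tissue RNA, fewer cells of a type and less RNA per cell cannot be told apart.

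Salivary glue and other salivary markers (13 genes) summed to 49.3, 18.0 and 602 CPM in *dcg-Gal4/+*, and to 403, 23.03 and 20.5 CPM in *lacZ* RNAi, so 1 library of each group was high. The glue gene *Sgs7* alone stood at 237 CPM in *dcg-Gal4/+* replicate 3 and 127 CPM in *lacZ* RNAi replicate 1. Muscle markers (17 genes) summed to between 36.0 and 169 CPM in *dcg-Gal4/+* and between 107 and 251 CPM in *lacZ* RNAi. Gut markers (24 genes) summed to 216 to 261 CPM in *dcg-Gal4/+* and 158 to 360 CPM in *lacZ* RNAi, with the maltase *Mal-A6* at 207 to 258 CPM in *dcg-Gal4/+* and 157 to 358 CPM in *lacZ* RNAi. Gut proteases were at most 6.86 CPM in *dcg-Gal4/+* (*Jon65Aiv*, replicate 3) and at most 47.6 CPM in *lacZ* RNAi (*Jon65Aiv*, replicate 3). Haemocyte markers (11 genes) stayed between 88.3 and 145 CPM in *dcg-Gal4/+* and between 66.2 and 183 CPM in *lacZ* RNAi. The cuticle list (16 genes) reached 307 CPM in *dcg-Gal4/+* replicate 3 and at most 96.9 CPM elsewhere.

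In both control groups the fat body transcriptome was dominated by a handful of storage protein genes and *Fbp1*, the gene of their receptor. Over the 6 libraries, with each group weighted alike, *Fbp1* took 11.2% of all reads, *Lsp2* 7.4% and *Lsp1gamma* 5.1%. The 10 most abundant genes of each library together held 32.2%, 39.0% and 46.2% of reads in *dcg-Gal4/+* replicates 1, 2 and 3, and 34.4%, 48.5% and 47.6% in *lacZ* RNAi replicates 1, 2 and 3. Their mean share was 39.1% ± 7.0 in *dcg-Gal4/+* and 43.5% ± 7.9 in *lacZ* RNAi (SD, n = 3 each), a difference of −4.33 percentage points that lay within the spread between replicates (exact two-sided permutation test, p = 0.5, where 3 against 3 allow no p below 0.1). Without *dcg-Gal4/+* replicate 3 the *dcg-Gal4/+* mean was 35.6% and the difference −7.86 points (exact permutation test, p = 0.3).

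How steeply the reads were concentrated differed far more between libraries of a group than between the groups. As few as 148, 75 and 17 genes held 50% of the reads in *dcg-Gal4/+* replicates 1, 2 and 3, and 136, 12 and 14 genes did so in *lacZ* RNAi replicates 1, 2 and 3. The 2 libraries with the broadest make-up, *dcg-Gal4/+* replicate 1 and *lacZ* RNAi replicate 1, were also those with the highest testis sums.

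The genes of the storage proteins and of their receptor came first among the abundant genes. *Fbp1* on 3L encodes the receptor through which the larval serum proteins are taken back up by the fat body. It was at 130352, 111893 and 146327 CPM in *dcg-Gal4/+* and at 81907, 127831 and 74104 CPM in *lacZ* RNAi, so 1 *lacZ* RNAi library lay among the *dcg-Gal4/+* libraries. *Lsp2* on 3L, a hexamerin of the late larva, had 53880, 74291 and 77491 CPM in *dcg-Gal4/+* and 65311, 85677 and 85824 CPM in *lacZ* RNAi. Its exons overlap those of the antisense gene *asRNA:CR11538* over 2096 bases, and whether the counting used strand is not given in the sources used here.

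The 3 subunits of larval serum protein 1 varied widely between libraries. *Lsp1gamma* (3L) stood at 10703, 33890 and 46674 CPM in *dcg-Gal4/+*, against 64957, 57448 and 93451 CPM in *lacZ* RNAi, with no overlap in CPM as deposited. After scaling between libraries the groups did overlap, and the log2 difference was −1.58 (standard error 0.96), or −2.47 (0.80) without *dcg-Gal4/+* replicate 3. *Lsp1beta* (2L) was at 14639, 43449 and 42846 CPM in *dcg-Gal4/+* and 22702, 36062 and 53608 CPM in *lacZ* RNAi, and *Lsp1alpha* (X) at 6666, 15172 and 15598 CPM and at 6219, 22679 and 23872 CPM in the same order. Replicate 1 of *dcg-Gal4/+* was the lowest of its group for all 3 subunits and for *Lsp2*. *Fbp2* (2L), an alcohol dehydrogenase relative that is made in large amounts by the late fat body, had 23468, 21834 and 38302 CPM in *dcg-Gal4/+*, and 8196, 24399 and 13706 CPM in *lacZ* RNAi.

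The list of fat body storage proteins held the *Lsp* genes and also *Fbp1* and *Fbp2*. These 6 genes summed to 239708, 300529 and 367238 CPM in *dcg-Gal4/+* and to 249292, 354097 and 344565 CPM in *lacZ* RNAi. In every library they took more than any other list described here. None of the 6 passed a test between the groups, and their median log2 difference was −0.34 over 6 libraries, where that of all genes tested was −0.11. With *dcg-Gal4/+* replicate 3 left out it was −0.98, against −0.01 over all genes, and 1 of the 6 lay below *lacZ* RNAi without overlap. Over 6 libraries the list mixed directions: the *Lsp* genes had log2 differences of −1.58 to −0.33, *Fbp1* 0.37 and *Fbp2* 0.83. Without *dcg-Gal4/+* replicate 3 the *Lsp* genes had −2.47 to −0.89, *Fbp1* −0.19 and *Fbp2* 0.11, so the sign of *Fbp1* hung on that library.

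Other secreted proteins followed. *Obp99b* (3R), a small odorant-binding protein, was at 41783, 47898 and 48127 CPM in *dcg-Gal4/+* and at 28923, 45015 and 46469 CPM in *lacZ* RNAi. *apolpp* (chromosome 4), the precursor of the lipophorin that carries lipid through the blood, was at 2364, 1834 and 2943 CPM in *dcg-Gal4/+*, below the 5533, 8145 and 4356 CPM of *lacZ* RNAi in every pairing of libraries as deposited. Its log2 difference after scaling was −1.44 (standard error 0.70), or −2.07 (0.65) without *dcg-Gal4/+* replicate 3, and its adjusted limma p passed in neither fit. *Cpr49Ac*, named for a cuticle protein domain, had between 4966 and 6877 CPM in *dcg-Gal4/+* and between 4269 and 7062 CPM in *lacZ* RNAi. The files also rank *CG34166* (15297 to 27526 CPM in *dcg-Gal4/+*, 17752 to 20989 CPM in *lacZ* RNAi), *CG2233*, *CG31075* and *CG11089* among the first 20 genes.

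Translation and mitochondrial genes filled most of the remaining places. The elongation factors *eEF1alpha1*, which brings aminoacyl-tRNA to the ribosome, and *eEF2*, which moves the ribosome along the message, were both among the first 20 genes. *eEF1alpha1* was at 7155, 7937 and 8434 CPM in *dcg-Gal4/+* and at 7392, 9526 and 9015 CPM in *lacZ* RNAi. Ribosomal protein genes of the small subunit (37 genes) summed to 23617, 27828 and 40251 CPM in *dcg-Gal4/+* and to 20746, 24717 and 29626 CPM in *lacZ* RNAi. Those of the large subunit (54 genes) summed to 36727, 43377 and 66695 CPM in *dcg-Gal4/+* and to 32137, 39535 and 47788 CPM in *lacZ* RNAi, so both subunits were highest in *dcg-Gal4/+* replicate 3. *Hsp23*, a small heat shock protein that ecdysone also induces, was the 18th gene with 7238, 3304 and 2228 CPM in *dcg-Gal4/+* and 2300, 3769 and 1279 CPM in *lacZ* RNAi. *regucalcin*, a calcium-binding protein gene that cold induces in adult flies, ranged from 806 to 4112 CPM in *dcg-Gal4/+* and from 2749 to 5396 CPM in *lacZ* RNAi.

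**Figure D2:**
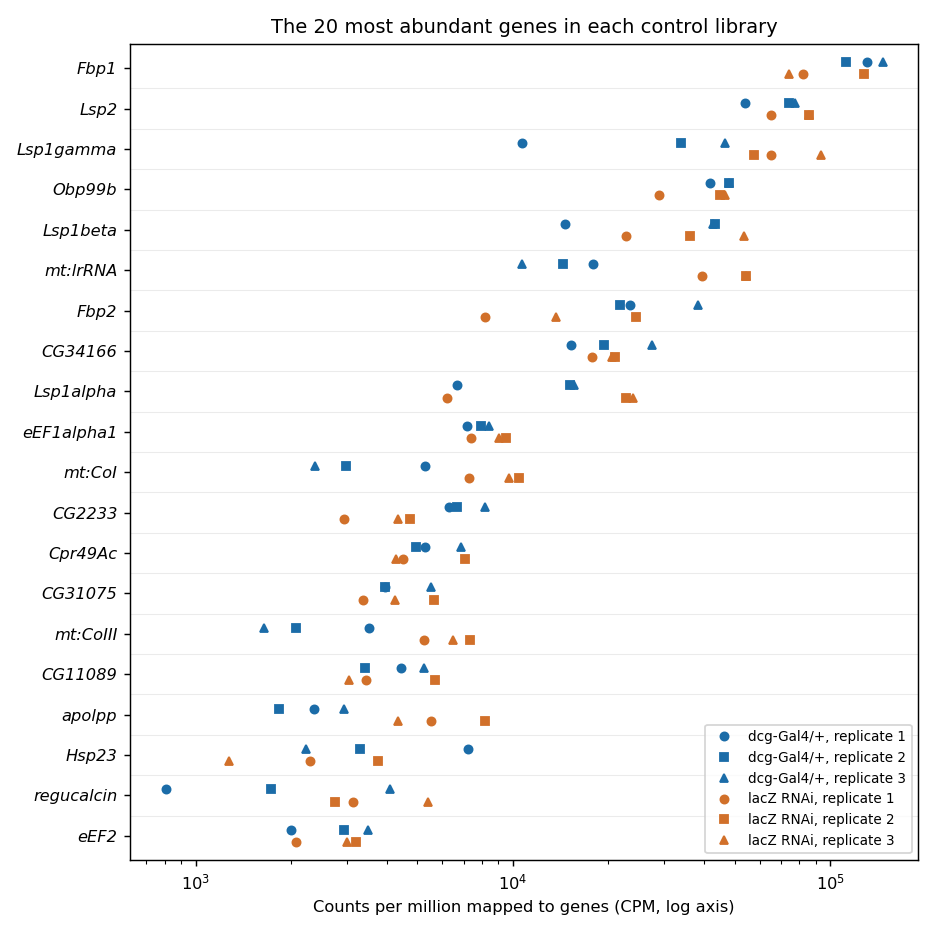
CPM (log axis) of the 20 genes with the highest mean of the group means, with 1 point per library (blue, *dcg-Gal4/+*; orange, *lacZ* RNAi; circle, square and triangle are replicates 1, 2 and 3). The groups overlap for most genes, while *mt:lrRNA*, *mt:CoI*, *mt:CoIII*, *apolpp* and *Lsp1gamma* lie lower and *CG2233* higher in all *dcg-Gal4/+* libraries in CPM as deposited.

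Long transcripts collect more reads than short ones, so the order of genes changes when CPM is divided by exon length and rescaled to a common total. On that scale *Obp99b*, with 594 exonic bases, came first at 105421, 118694 and 117315 length-scaled CPM in *dcg-Gal4/+* and 75459, 118773 and 116077 in *lacZ* RNAi. *CG34166* (613 bases) came next with a mean of 49496, just ahead of *Fbp1* (3465 bases) with 48541 and *Lsp2* with 44755. The order of these last 3 did not exceed their spread over libraries. All 20 genes of the ranking by CPM remained in it without *dcg-Gal4/+* replicate 3.

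Within the *dcg-Gal4/+* group, the gains of replicate 3 over the mean of replicates 1 and 2 were in the same abundant genes. *Fbp1* gained 25204 CPM, *Lsp1gamma* 24377 CPM and *Fbp2* 15651 CPM. Of the 10 largest gains, the exception was *18SrRNA-Psi:CR41602*, listed as a ribosomal RNA pseudogene, which had 605, 640 and 4512 CPM in replicates 1, 2 and 3. The largest losses included *Hsp83* (2071, 1557 and 448 CPM), the pteridine enzyme gene *Pu* (2266, 1379 and 319 CPM) and the leucyl aminopeptidases of sperm *S-Lap1* (1416, 1035 and 13.2 CPM) and *S-Lap7* (1031, 910 and 13.5 CPM). Of 9067 genes above 1 CPM in all the other 5 control libraries, 1750 were under 1 CPM in this one. Its loss was larger for short genes: the median log2 ratio of replicate 3 to the mean of replicates 1 and 2 was −1.52 in the quartile with the shortest exons and between −0.98 and −0.86 in the other 3.

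The *dcg-Gal4/+* and *lacZ* RNAi libraries were then compared gene by gene. Each library's CPM was scaled by the median of its ratios to a common profile and 1 was added. The log2 values of the 8069 genes averaging at least 5 CPM were fitted with limma. Differences are *dcg-Gal4/+* minus *lacZ* RNAi on this log2(CPM + 1) scale, which understates those of low genes. No gene was higher and none was lower at an adjusted p under 0.05 (0 of 8069 in each direction, 0%), and 105 had an unadjusted p under 0.05. edgeR's quasi-likelihood test on the recovered reads also called 0, with 133 genes at an unadjusted p under 0.05, and DESeq2's Wald test called 26 genes higher and 13 lower of 8682 (0.299% and 0.15%). limma with array weights, which lets libraries differ in weight, called 86 higher and 352 lower (1.07% and 4.36%). A fit of all 12 libraries called 0 higher and 2 lower (0.0248%), and a fit without *dcg-Gal4/+* replicate 1 called 3 higher (0.038%) and 0 lower. The smallest adjusted p of limma, 0.372, was that of *CG18530* and *CR43105*, both lower in *dcg-Gal4/+*.

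Without *dcg-Gal4/+* replicate 3, limma called 1 gene higher (0.0122% of 8188) and 0 lower, with 291 genes at an unadjusted p under 0.05. edgeR called 3 higher (0.0366%) and 2 lower (0.0244%), and DESeq2 called 26 higher and 99 lower of 8981 (0.29% and 1.1%). The gene called by limma was *CR33319*, a pseudogene on 2L (20928824 to 20929525, dm6). It was at 49.7, 37.3 and 0.52 CPM in *dcg-Gal4/+* and at 0.34, 0.040 and 0.16 CPM in *lacZ* RNAi. *dcg-Gal4/+* replicates 1 and 2 were therefore far above all other control libraries, and replicate 3 barely so. Without replicate 3 its log2 difference was 4.89 (standard error 0.32, limma adjusted p = 0.00783, adjusted p over the other 5 fits that left this library out 6.5e-39 to 0.0489). In the RNAi libraries of the same tables it had 42.8, 47.8 and 32.3 CPM in *4EHP* RNAi and 22.6, 16.0 and 10.5 CPM in *NELF-E* RNAi. Its exons overlap *CG9270* on the other strand over 70 bases.

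Since few genes passed, the groups were also described by whether their libraries overlapped. After scaling, all *dcg-Gal4/+* libraries lay above all *lacZ* RNAi libraries for 285 of the 8069 genes (3.53%) and below them for 195 (2.42%). As deposited, the split was 604 above and 166 below, so the share of those above moved from 78.4% as deposited to 59.4% after scaling. Without *dcg-Gal4/+* replicate 3 and after scaling it was 578 above (7.16%) and 975 below (12.1%). Groups with fewer libraries separate more easily, so such counts tend to rise whichever library is left out. The list counts without that library, given below, share this limit. The median log2 difference over all genes was −0.11 over 6 libraries, −0.01 without replicate 3 and 0.54 without replicate 3 in CPM as deposited. Directions of modest size therefore hang on the scaling.

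A gap present both as deposited and after scaling was found for 19 genes, 12 above (0.149% of 8069) and 7 below (0.0868%). For these, the lowest library of one group was at least 2 times the highest of the other on both scales. They were chosen after the values were seen, and their gap is a description. The sign of each difference was the same in all 21 to 23 fits in which the gene was tested. Choosing genes by a gap on both scales made this all but certain. The adjusted p passed the threshold in 3 to 8 of those fits, some of which used blocks of same-numbered libraries. Several of the 19 averaged under 5 CPM in the lower group and were tested only because the other group was high.

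**Figure D3:**
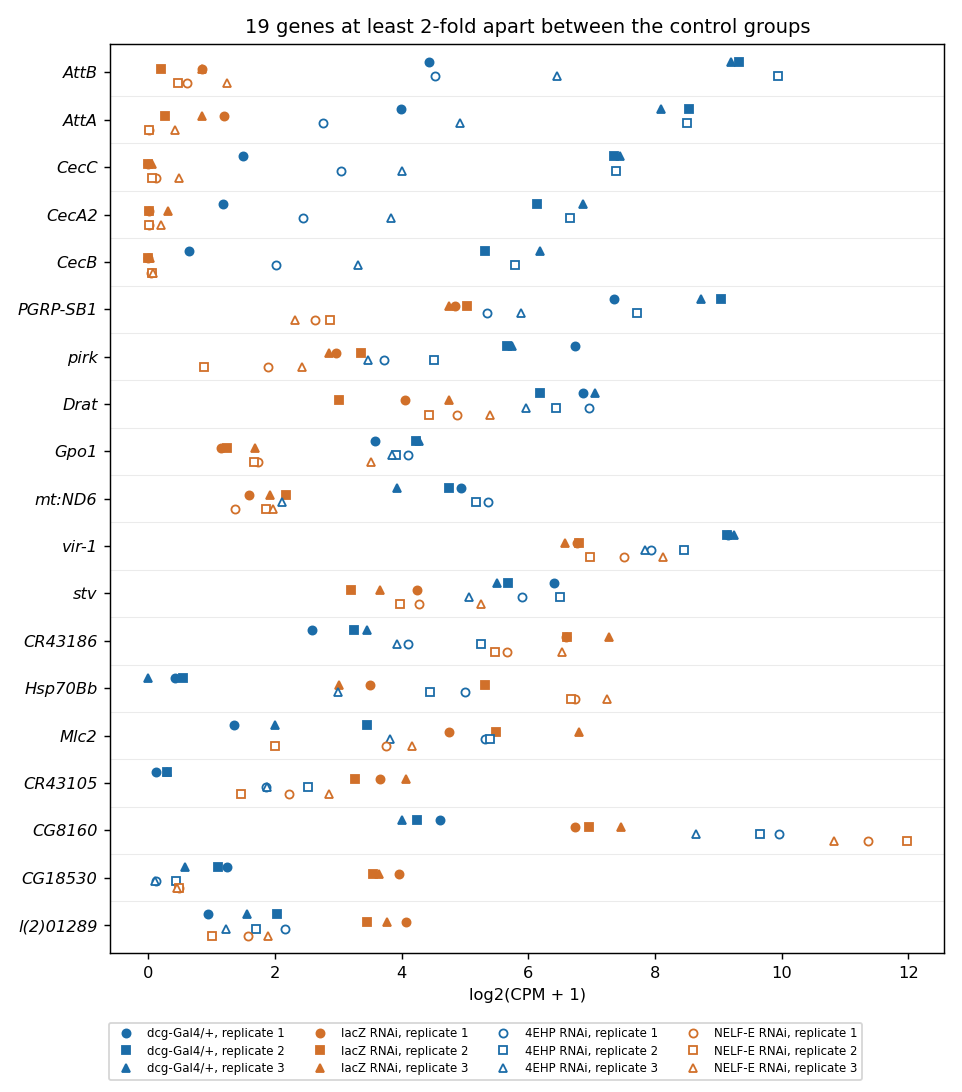
log2(CPM + 1), as deposited, of the 19 genes with a gap of more than 2-fold between all control libraries of both groups. Filled points are *dcg-Gal4/+* (blue) and *lacZ* RNAi (orange), open points are *4EHP* RNAi (blue) and *NELF-E* RNAi (orange), and circle, square and triangle are replicates 1, 2 and 3. *dcg-Gal4/+* lies higher for the first 12 genes and lower for the last 7, and for *AttB* its libraries span 20.7 to 639 CPM.

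Of the 12 genes with *dcg-Gal4/+* above, 7 belong to the Imd response to bacteria. *AttB* encodes an attacin, which kills Gram-negative bacteria. It was at 20.7, 639 and 588 CPM in *dcg-Gal4/+* replicates 1, 2 and 3 and at 0.80, 0.15 and 0.80 CPM in *lacZ* RNAi. The log2 difference was 6.99 (standard error 1.57, limma adjusted p = 1.00), or 5.86 (1.28) without *dcg-Gal4/+* replicate 3. Over the alternatives the adjusted p ran from 1.1e-21 to 1.00. The lowest came from limma without *dcg-Gal4/+* replicate 3 and with blocks of same-numbered libraries, whose numbers share no more than a name. *AttA*, the neighbour of *AttB* on 2R, was at 14.9, 370 and 273 CPM in *dcg-Gal4/+* and at 1.30, 0.21 and 0.80 CPM in *lacZ* RNAi. *dcg-Gal4/+* replicate 1 was far below replicates 2 and 3 for both genes, yet it still lay above all *lacZ* RNAi libraries.

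The cecropins, membrane-lysing peptides encoded in a cluster on 3R, were likewise lowest in replicate 1 within *dcg-Gal4/+*. *CecC* was at 1.82, 162 and 174 CPM in *dcg-Gal4/+*, and 0, 0 and 6 reads were counted on it in *lacZ* RNAi replicates 1, 2 and 3. *CecB* was at 0.57, 38.7 and 71.8 CPM in *dcg-Gal4/+*, with 0, 0 and 4 reads in *lacZ* RNAi. *CecA2* was at 1.27, 69.8 and 115 CPM in *dcg-Gal4/+* and at 0.24 CPM or less in *lacZ* RNAi. The cecropin genes resemble each other closely, as do *AttA* and *AttB*, and how reads that fit several copies were counted is not given in the sources used here.

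*PGRP-SB1*, a secreted peptidoglycan-cleaving protein, was at 162, 527 and 421 CPM in *dcg-Gal4/+* and at 27.6, 31.6 and 25.8 CPM in *lacZ* RNAi (log2 difference 3.38, standard error 0.76, or 2.75 without *dcg-Gal4/+* replicate 3). *pirk*, a cytoplasmic inhibitor that damps Imd signalling, was at 105, 49.8 and 52.3 CPM in *dcg-Gal4/+* and at 6.78, 9.28 and 6.19 CPM in *lacZ* RNAi (log2 difference 2.87, standard error 0.47, or 2.58 without *dcg-Gal4/+* replicate 3). Unlike the peptides, *pirk* was highest in replicate 1 within *dcg-Gal4/+* as deposited, though after scaling replicate 3 was highest. These 7 genes were without overlap also between the RNAi libraries of the same 2 tables. *PGRP-SB1* was at 39.7, 208 and 58.3 CPM in *4EHP* RNAi and at 5.21, 6.34 and 3.98 CPM in *NELF-E* RNAi, and *AttB* at 22.1, 987 and 86.5 CPM and at 0.53, 0.39 and 1.38 CPM in the same groups. The *4EHP* RNAi and *NELF-E* RNAi libraries differ in their knockdown as well as in their table.

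The whole list of antimicrobial peptides had 24 genes, 23 of them in the files and 17 with enough reads. Of the 17, 6 lay above *lacZ* RNAi without overlap after scaling, 0 lay below, 8 had an unadjusted p under 0.05 and 0 an adjusted one. Over all genes tested, 3.53% lay above and 2.42% below, and without *dcg-Gal4/+* replicate 3, 7.16% and 12.1%, which is the background of the list counts that follow. The peptide counts were again 6 and 0 without that library. The median log2 difference was 3.44 over 6 libraries and 2.30 without *dcg-Gal4/+* replicate 3. *AttA*, *AttB* and the cecropins *CecA1*, *CecA2*, *CecB* and *CecC* averaged 0.94 CPM or less in *lacZ* RNAi. They reached the mean of 5 CPM only through *dcg-Gal4/+*, so the counts and the median lean to that side by selection. *DptB*, a diptericin, was at 43.4, 918 and 730 CPM in *dcg-Gal4/+* and at 5.40, 0.68 and 52.9 CPM in *lacZ* RNAi, and *AttC* at 14.2, 665 and 956 CPM and at 3.82, 3.79 and 17.3 CPM in the same groups. *lacZ* RNAi replicate 3 was uneven: it had 220 CPM of *DptA* and 107 CPM of *Mtk*, where replicates 1 and 2 had at most 4.78 CPM of either, and yet it had 0.80 CPM of *AttA*.

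Peptides mainly under the Toll pathway overlapped between the groups. *Drs*, encoding the antifungal drosomycin, was at 1140, 1286 and 754 CPM in *dcg-Gal4/+* and at 1629, 1343 and 563 CPM in *lacZ* RNAi (log2 difference −0.17, standard error 0.54). *BomS2*, a short bomanin, was highest in *lacZ* RNAi replicate 1, with 6.53, 44.6 and 49.1 CPM in *dcg-Gal4/+* and 164, 14.6 and 0.20 CPM in *lacZ* RNAi. *BomS1* was at 7.81, 35.6 and 65.1 CPM in *dcg-Gal4/+* and at 45.6, 2.97 and 0.099 CPM in *lacZ* RNAi (log2 difference 2.20, standard error 1.55), and *BomS3* had a log2 difference of 1.28 (standard error 1.40). For these 3 short bomanins *dcg-Gal4/+* replicate 1 was the lowest of its group, as for the Imd peptides. *BomBc1* was under 1 CPM in all *dcg-Gal4/+* libraries and at 38.3, 2.89 and 0.068 CPM in *lacZ* RNAi.

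**Figure D4:**
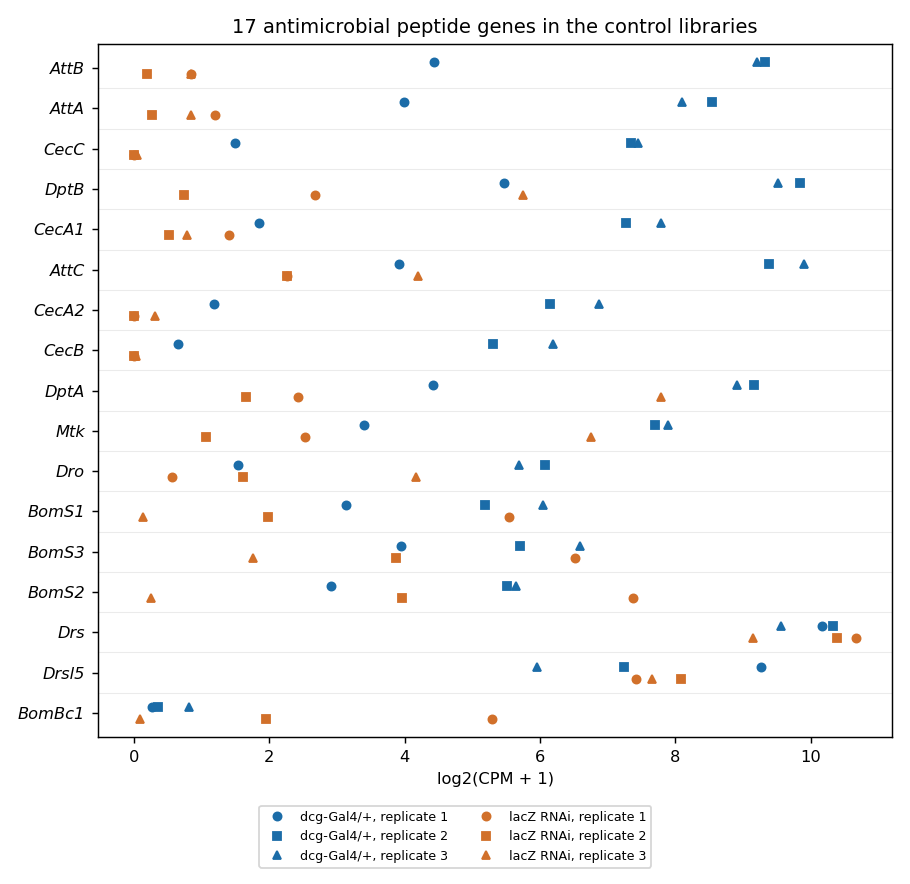
log2(CPM + 1), as deposited, of the 17 antimicrobial peptide genes with a mean of at least 5 CPM, ordered by log2 difference (blue, *dcg-Gal4/+*; orange, *lacZ* RNAi; circle, square and triangle are replicates 1, 2 and 3). *dcg-Gal4/+* replicates 2 and 3 lie well above replicate 1 for the genes from *AttB* to *Dro*, whereas *Drs* overlaps between the groups.

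Among 18 recognition and signalling genes of the Toll and Imd pathways, 17 were tested. The fitted list had 3 genes above without overlap and 0 below, or 3 and 1 without *dcg-Gal4/+* replicate 3, and 0 passed an adjusted p. Those 3 were *PGRP-SB1*, *pirk* and *PGRP-SC2*, an amidase that degrades peptidoglycan. *PGRP-SC2* averaged 0.77 CPM in *lacZ* RNAi and was tested only because *dcg-Gal4/+* was higher. *Rel*, the NF-kappaB factor of the Imd pathway, was at 174, 361 and 561 CPM in *dcg-Gal4/+*, against 75.7, 125 and 82.8 CPM in *lacZ* RNAi, which overlapped only after scaling. The receptors *PGRP-LC* (28.4, 19.1 and 16.3 CPM in *dcg-Gal4/+*, 17.0, 22.4 and 13.8 CPM in *lacZ* RNAi) and *PGRP-LE* overlapped.

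The other genes with *dcg-Gal4/+* above had varied roles. *vir-1*, known as a virus-induced marker of the JAK-STAT pathway, was even within both groups as deposited, but not after scaling. It was at 569, 561 and 609 CPM in *dcg-Gal4/+* and at 109, 110 and 95.1 CPM in *lacZ* RNAi (log2 difference 2.34, standard error 0.51, or 1.84 without *dcg-Gal4/+* replicate 3). In the RNAi libraries it was at 244, 352 and 230 CPM with *4EHP* RNAi and at 181, 125 and 277 CPM with *NELF-E* RNAi, which overlap. *Drat* was at 115, 71.8 and 132 CPM in *dcg-Gal4/+* and at 15.6, 7.03 and 26.01 CPM in *lacZ* RNAi. *Gpo1*, a mitochondrial glycerophosphate oxidase that passes electrons from cytosolic glycerol phosphate, had 11.0, 17.8 and 18.3 CPM in *dcg-Gal4/+*, and 1.22, 1.38 and 2.21 CPM in *lacZ* RNAi. The co-chaperone *stv* was at 83.6, 50.5 and 44.3 CPM in *dcg-Gal4/+* and at 17.9, 8.23 and 11.6 CPM in *lacZ* RNAi (log2 difference 2.05, standard error 0.31).

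Among heat shock genes the counts changed when 1 library was left out. Of 14 tested in a list of 20, 2 lay above without overlap after scaling and 1 below, and 4 had an unadjusted p under 0.05. With *dcg-Gal4/+* replicate 3 left out, 8 lay above and 1 below, and the median log2 difference was 0.71, against 0.48 over 6 libraries. *Hsp70Bb*, a heat-inducible chaperone gene on 3R, was at 0.35, 0.46 and 0 CPM in *dcg-Gal4/+* and at 10.4, 38.7 and 7.11 CPM in *lacZ* RNAi (log2 difference −3.76, standard error 0.81). Its near copy *Hsp70Ab* ran the opposite way in 2 libraries, at 41.8, 21.9 and 2.71 CPM in *dcg-Gal4/+* and 0.74, 1.17 and 5.72 CPM in *lacZ* RNAi. Reads of the *Hsp70* copies can be split between them in counting, so neither direction can be read as that of the family. *Hsp26*, *Hsp68* and *DnaJ-1* were each highest in *dcg-Gal4/+* replicate 1 and lowest in replicate 3, with 857, 566 and 90.4 CPM of *Hsp26* in *dcg-Gal4/+* against 330, 145 and 264 CPM in *lacZ* RNAi.

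Mitochondrially encoded genes took 3.23%, 2.28% and 1.75% of reads in *dcg-Gal4/+* and 5.89%, 7.98% and 7.89% in *lacZ* RNAi. The difference of the means was −4.83 percentage points, larger than the spread within either group (exact two-sided permutation test, p = 0.1, the smallest possible), and −4.50 points without *dcg-Gal4/+* replicate 3 (exact permutation test, p = 0.1, again the smallest possible). Most of it was *mt:lrRNA*, the large ribosomal RNA of the mitochondrion, at 17833, 14413 and 10698 CPM in *dcg-Gal4/+*, against 39566, 54241 and 54358 CPM in *lacZ* RNAi (log2 difference −1.92, standard error 0.56, limma adjusted p = 1.00). *mt:Cyt-b*, a subunit of complex III, was at 1373, 782 and 633 CPM in *dcg-Gal4/+* and at 2564, 2774 and 3137 CPM in *lacZ* RNAi. *mt:CoI* of complex IV was at 5278, 2978 and 2384 CPM in *dcg-Gal4/+* and at 7265, 10481 and 9691 CPM in *lacZ* RNAi. Of 14 mitochondrial genes tested, 6 lay below without overlap after scaling and 1 above, and 8 and 1 did so without *dcg-Gal4/+* replicate 3. Over all genes 2.42% lay below and 3.53% above.

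The gene above was *mt:ND6*, a complex I subunit, at 29.5, 25.9 and 14.3 CPM in *dcg-Gal4/+* and at 2.00, 3.50 and 2.80 CPM in *lacZ* RNAi (log2 difference 2.51, standard error 0.40). *mt:ND4L*, too low in the mean to be tested, was at 15.4, 8.65 and 5.05 CPM in *dcg-Gal4/+*, and at 0.24, 0.40 and 0.24 CPM in *lacZ* RNAi. Complex I subunits of the mitochondrion were thus not uniform, since *mt:ND4* lay below, with 334, 159 and 146 CPM in *dcg-Gal4/+* and 514, 436 and 586 CPM in *lacZ* RNAi. In the RNAi libraries *mt:ND6* was at 39.99, 35.2 and 3.33 CPM with *4EHP* RNAi and at 1.58, 2.63 and 2.93 CPM with *NELF-E* RNAi.

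Of the 7 genes with *dcg-Gal4/+* below, 3 lie within 49.3 kb of 2R. They are *CG8160* (15327143 to 15328271) and the pseudogenes *CR43105* (15374846 to 15375702) and *CR43186* (15375834 to 15376481), in dm6 coordinates. *CR43186* was at 5.03, 8.55 and 10.0 CPM in *dcg-Gal4/+* and at 95.5, 96.7 and 154 CPM in *lacZ* RNAi (log2 difference −3.81, standard error 0.61). *CR43105* was at 0.087, 0.22 and 0.22 CPM in *dcg-Gal4/+* and at 11.6, 8.66 and 15.7 CPM in *lacZ* RNAi (log2 difference −3.47, standard error 0.37). *CG8160* was at 23.4, 18.0 and 15.1 CPM in *dcg-Gal4/+*, and at 106, 123 and 175 CPM in *lacZ* RNAi.

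Not every gene of this stretch showed the gap. Of 6 tested genes there, 4 lay below without overlap and 0 above, the fourth being *unc-5*. The pseudogene *CR43275* next to *CR43105* was at 4.04, 6.13 and 11.6 CPM in *dcg-Gal4/+* and at 3.75, 3.99 and 9.51 CPM in *lacZ* RNAi, and the repair gene *Pms2* was at 46.4, 34.7 and 2.40 CPM and at 34.0, 7.10 and 13.7 CPM in the same groups. In the RNAi libraries *CG8160* was far higher than in any control, at 998, 806 and 401 CPM with *4EHP* RNAi and at 2635, 4015 and 1812 CPM with *NELF-E* RNAi. *CR43105* overlapped between them, at 2.64, 4.73 and 2.66 CPM and at 3.69, 1.77 and 6.21 CPM.

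A further pair of genes was high only in *lacZ* RNAi among the 12 RNA-seq libraries of the series. *CG18530* (3R, 12633359 to 12634670), listed as protein-coding, was at 1.36, 1.14 and 0.50 CPM in *dcg-Gal4/+* and at 14.5, 10.7 and 11.5 CPM in *lacZ* RNAi (log2 difference −2.86, standard error 0.30, limma adjusted p = 0.372, over the alternatives 1.5e-26 with DESeq2 to 1.00). It was at 0.079 to 0.36 CPM in *4EHP* RNAi and 0.37 to 0.40 CPM in *NELF-E* RNAi. *l(2)01289* (2R), which the annotation lists as *hlk*, was at 0.93, 3.08 and 1.94 CPM in *dcg-Gal4/+* and at 15.9, 9.96 and 12.7 CPM in *lacZ* RNAi, while both RNAi groups stayed at 3.46 CPM or below. *CG18530* overlaps *asRNA:CR46018* on the other strand over 429 bases. The last of the 7, *Mlc2*, a myosin light chain of muscle, was at 1.57, 9.93 and 2.98 CPM in *dcg-Gal4/+* and at 25.8, 43.9 and 111 CPM in *lacZ* RNAi. The muscle gene *Mhc* did not go with it, at 3.07, 3.48 and 0.54 CPM in *dcg-Gal4/+* and 6.02, 1.57 and 3.80 CPM in *lacZ* RNAi.

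Of the 12 genes above, 10 also lay above without overlap in *4EHP* RNAi against *NELF-E* RNAi, where 23.5% of all tested genes did so, and 4 of the 7 below lay below there, where 11.7% of all did. None was apart in the opposite direction. Without *dcg-Gal4/+* replicate 3 the same 2-fold gap was met by 17 genes above and 24 below, which include 11 of the 12 and 7 of the 7. The exception was *Drat*, whose gap was under 2-fold with the scaling factors computed from the 5 libraries. A gap met by every library as deposited cannot be lost by leaving a library out. Apart from the scaling, this retention was therefore fixed in advance. The libraries' testis, salivary and sex transcripts given above differ within both groups, and in a fit with the testis sum as a covariate the adjusted p of the 19 lay between 0.00392 and 0.244.

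Genes of chromosome 4, the small fly autosome that the protein Pof binds, lay low in *dcg-Gal4/+* more often than those of other arms. Of 55 tested, 8 were below *lacZ* RNAi without overlap after scaling (14.5%) and 0 above, whereas the shares below on the 5 large arms were between 1.94% and 2.67%. The sign of the fitted difference was negative for 51 of the 55, with a median of −0.56, and 3 had an unadjusted p under 0.05 in that direction. Medians of the 5 large arms lay between −0.17 and −0.08, so a negative sign was common there too. When *dcg-Gal4/+* replicate 3 was left out, 29 were below and 1 above, 53 had a negative sign, and the median was −0.72. Over all genes 12.1% then lay below and 7.16% above, and medians of the large arms lay between −0.11 and 0.04. *PMCA*, a calcium pump of the plasma membrane, was at 80.0, 52.7 and 36.8 CPM in *dcg-Gal4/+* and at 90.1, 97.6 and 66.3 CPM in *lacZ* RNAi. *Mitf*, a transcription factor of lysosomal genes, was at 29.6, 19.02 and 13.3 CPM in *dcg-Gal4/+* and 29.9, 26.3 and 22.7 CPM in *lacZ* RNAi, so both genes overlapped before scaling.

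The level of each arm was then set out library by library as the median over its genes of the deviation from each gene's mean over the 12 RNA-seq libraries, less the median of the library. For chromosome 4 this was 0.04, −0.48 and 0.15 in *dcg-Gal4/+* and 0.19, 0.96 and 0.21 in *lacZ* RNAi. It was −0.02, −1.26 and −1.45 in *4EHP* RNAi and 0.26, 0.31 and 0.45 in *NELF-E* RNAi. For the 5 large arms all libraries lay between −0.14 and 0.21. The gap between *dcg-Gal4/+* replicate 3 and *lacZ* RNAi replicate 1 on chromosome 4 was thus small beside the spread within each group. Between *4EHP* RNAi and *NELF-E* RNAi, 31 of the 55 genes were below without overlap and 3 above.

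**Figure D5:**
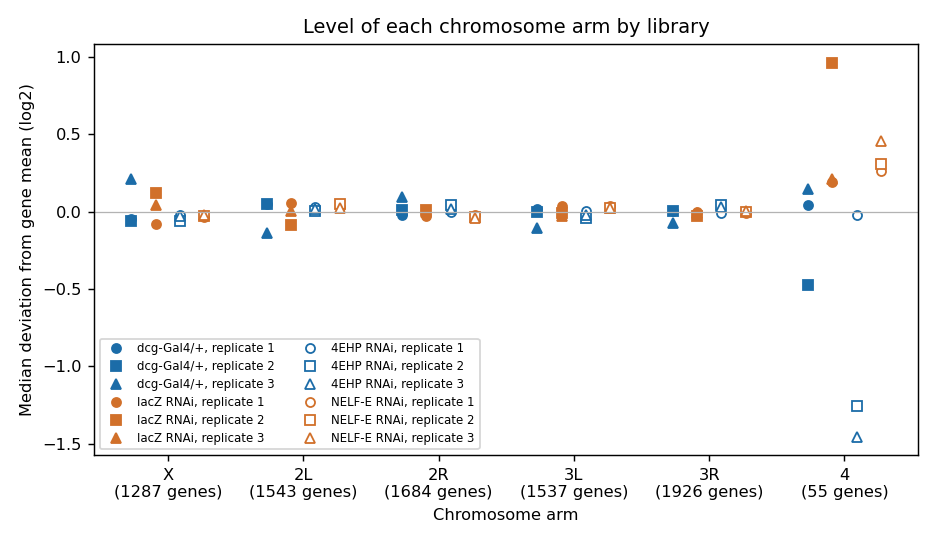
Median deviation of the genes of each chromosome arm from their mean over 12 libraries (log2), less the library's median, with the number of genes on each arm under its name. Filled points are the control libraries, open points the RNAi libraries (blue, *dcg-Gal4/+* and *4EHP* RNAi; orange, *lacZ* RNAi and *NELF-E* RNAi). Chromosome 4 spans −1.45 to 0.96, while every large arm stays between −0.14 and 0.21.

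No gene of the metabolic lists passed the test between the control groups. In lipid synthesis and storage (18 tested of 20), 1 gene lay above without overlap and 1 below, or 1 and 4 without *dcg-Gal4/+* replicate 3, where the median log2 difference was −0.71. *Lsd-1*, a perilipin on lipid droplets, was at 1815, 2360 and 3590 CPM in *dcg-Gal4/+* and 2439, 3177 and 2920 CPM in *lacZ* RNAi. *Desat1*, the desaturase that makes monounsaturated fatty acids, was at 150, 382 and 227 CPM in *dcg-Gal4/+* and at 595, 496 and 992 CPM in *lacZ* RNAi (log2 difference −1.61, standard error 0.64, or −2.05 without *dcg-Gal4/+* replicate 3). *sug*, a sugar-responsive transcription factor gene, was at 110, 109 and 39.97 CPM in *dcg-Gal4/+* and at 26.2, 20.1 and 61.4 CPM in *lacZ* RNAi. As deposited the groups overlapped through replicate 3 of each. After scaling they were barely apart, and *sug* was the gene counted above. Glycogen and trehalose genes (9 tested) and glycolysis genes (12 tested) had 0 above and 0 below over the 6 libraries. *Gapdh1* was at 717, 940 and 1076 CPM in *dcg-Gal4/+* and at 667, 750 and 966 CPM in *lacZ* RNAi. With *dcg-Gal4/+* replicate 3 left out, 5 of the 12 glycolysis genes and 3 of the 9 glycogen and trehalose genes lay below and 0 above.

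Serine, one-carbon and ATF4 target genes (12 tested) had 0 apart in either direction over 6 libraries and a median log2 difference of 0.28. That median turned to −0.24 without *dcg-Gal4/+* replicate 3, where 2 lay below and 0 above. *Thor*, the 4E-BP translation inhibitor, was at 1124, 1228 and 1950 CPM in *dcg-Gal4/+* and at 1416, 1270 and 1528 CPM in *lacZ* RNAi. *Shmt*, serine hydroxymethyltransferase, was at 1181, 738 and 1089 CPM in *dcg-Gal4/+* and 631, 1060 and 611 CPM in *lacZ* RNAi. *Gnmt*, glycine N-methyltransferase, varied widely within both groups, at 33.4, 167 and 413 CPM in *dcg-Gal4/+* and 74.7, 44.3 and 216 CPM in *lacZ* RNAi.

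Hormone and growth lists had few genes apart. In the ecdysone response (12 tested of 24), 1 gene lay above and 1 below, or 1 and 2 without *dcg-Gal4/+* replicate 3, and of 14 insulin, TOR and FOXO genes 0 lay above and 1 below, or 1 and 6 without it. *ImpE2*, an ecdysone-inducible gene, was at 106, 65.8 and 119 CPM in *dcg-Gal4/+* and at 5.57, 24.5 and 33.9 CPM in *lacZ* RNAi (log2 difference 2.26, standard error 0.94). *shd*, which converts ecdysone to its active form, was at 16.5, 31.6 and 26.8 CPM in *dcg-Gal4/+* and at 61.1, 80.4 and 91.4 CPM in *lacZ* RNAi (log2 difference −1.74, standard error 0.62). The early genes *br*, *Eip74EF* and *Eip75B* overlapped, with *br* at 370, 177 and 239 CPM in *dcg-Gal4/+* and at 268, 409 and 136 CPM in *lacZ* RNAi. Secreted signals (15 tested) had 0 above and 0 below, or 0 and 4 without *dcg-Gal4/+* replicate 3. *ImpL2*, an insulin-binding protein gene, was at 9.21, 12.0 and 19.6 CPM in *dcg-Gal4/+* and at 29.6, 27.1 and 23.8 CPM in *lacZ* RNAi, apart as deposited only. *Ilp6*, the insulin-like peptide of the fat body, was at 304, 207 and 394 CPM in *dcg-Gal4/+* and at 242, 303 and 189 CPM in *lacZ* RNAi.

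Detoxification and metal genes were varied. Of 40 cytochrome P450 genes and 22 glutathione S-transferase genes tested, 1 of each lay above without overlap and 1 of each below, near the shares over all genes (3.53% and 2.42%). Without *dcg-Gal4/+* replicate 3, 9 cytochrome P450 genes and 4 glutathione S-transferase genes lay below and 1 of each above, where 12.1% of all genes lay below. *Cyp6g1*, known for insecticide resistance, was at 372, 524 and 1182 CPM in *dcg-Gal4/+* and at 404, 1015 and 648 CPM in *lacZ* RNAi. *MtnA*, a metallothionein, was at 411, 432 and 71.3 CPM in *dcg-Gal4/+* and at 55.0, 105 and 57.4 CPM in *lacZ* RNAi, so only replicates 1 and 2 of *dcg-Gal4/+* stood clear. Of 46 proteasome genes 3 lay above and 0 below, and of 27 subunit genes of the vacuolar proton pump 0 lay above and 2 below. These counts became 1 and 1 for the proteasome and 4 and 5 for the proton pump without *dcg-Gal4/+* replicate 3. Genes of the small RNA pathways (11 tested), through which *lacZ* RNAi acts, had 0 above and 2 below, or 0 and 3 without *dcg-Gal4/+* replicate 3. *AGO2*, the slicer of RNA interference, was at 152, 178 and 229 CPM in *dcg-Gal4/+* and at 143, 172 and 143 CPM in *lacZ* RNAi, and *Dcr-2*, which cuts the double-stranded RNA, at 61.9, 45.5 and 48.2 CPM and at 55.4, 73.6 and 49.4 CPM.

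For the genes that the study targeted, the differences between its controls lay within their spread. *eIF4EHP*, the cap-binding repressor 4EHP, was at 26.6, 21.3 and 5.55 CPM in *dcg-Gal4/+* and at 28.7, 9.67 and 13.5 CPM in *lacZ* RNAi (log2 difference −0.19, standard error 0.37, or 0.03 without *dcg-Gal4/+* replicate 3). *Nelf-E*, a subunit of the complex that pauses RNA polymerase II, was at 39.5, 30.035 and 6.99 CPM in *dcg-Gal4/+* and at 38.6, 12.8 and 20.7 CPM in *lacZ* RNAi (log2 difference −0.21, standard error 0.41, or 0.08 without that library). For both, the lowest library as deposited was *dcg-Gal4/+* replicate 3, and the libraries with the higher testis sums had the higher values. The scaling factors, which follow the median gene, ran in nearly the same order, from 1.49 in *dcg-Gal4/+* replicate 1 to 0.61 in replicate 3. This order is therefore not particular to these genes. *crc*, the fly ATF4, was steadier as deposited, at 114, 112 and 91.2 CPM in *dcg-Gal4/+* and at 90.4, 93.6 and 78.4 CPM in *lacZ* RNAi. After scaling it was not steadier (log2 difference 0.15, standard error 0.43, or −0.21 without *dcg-Gal4/+* replicate 3). The eye-colour gene *w*, the marker that most fly transgenes carry, was at 23.6, 27.5 and 7.77 CPM in *dcg-Gal4/+* and at 16.8, 16.3 and 11.2 CPM in *lacZ* RNAi.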

How the data were processed

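The authors deposited CPM values for 17575 genes in each of 2 tables. Per the submitters' processing notes, STAR, featureCounts and DESeq2 were used with the dm6 build, within the Seq-N-Slide workflow. Each library sums to the same total, so no factor of a table enters. Reads were recovered from the CPM steps, and 99.76% to 99.98% of values came out whole (tolerance 0.1 read). The main test was limma 3.58.1 in R 4.3.3 (eBayes with a trend) on log2(CPM divided by a median-of-ratios factor + 1) for genes with a mean of at least 5 CPM, with Benjamini-Hochberg adjustment and a threshold of 0.05. edgeR 4.0.16 and DESeq2 1.42.0 on recovered reads, other scalings, pseudocounts and filters were alternatives. p values measure the spread between pools of larvae. Tests were checked on simulated libraries drawn from a common mean profile with planted changes. No simulated library stood apart as *dcg-Gal4/+* replicate 3 does, so the check does not measure power in these data. Genes were annotated with BDGP6.54, which matched 99.68% of them. Members and lists were chosen with earlier results of these data known. Named were the 20 most abundant genes by CPM and the 10 per kb, the largest differences past the threshold, the largest gains and losses of *dcg-Gal4/+* replicate 3, up to 4 members per list and the targeted genes. The 19 genes with a gap, the genes of chromosome 4 and 2R and further list members were named after their values were seen.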

Additional observations from a re-analysis of the deposited data

How the results depend on the processing

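The counts of genes higher and lower were both 0 in the main test. They stayed at 0 and 0 with edgeR, CPM as deposited, other pseudocounts and filters, the replicate block and scaling by genes of at least 100 CPM. DESeq2 called 26 higher and 13 lower, array weights 86 and 352, and all 12 libraries fitted together 0 and 2. Leaving out 1 library at a time gave 0 to 3 higher and 0 to 0 lower. The 3 were *AttA*, *AttB* and *CecC*, without *dcg-Gal4/+* replicate 1. Without *dcg-Gal4/+* replicate 3, edgeR called 3 and 2, DESeq2 26 and 99, CPM as deposited 1 and 0, and the replicate block 25 and 23. A covariate of the testis sum, chosen after seeing the data as was scaling by abundant genes, gave 16 and 19 over 6 libraries and 2 and 2 without replicate 3. The cause of these changes was not tested. Deviations of same-numbered libraries correlated at 0.87, −0.87 and 0.20, so the numbers share no more than a name. The share of the 10 most abundant genes, −4.33 points in the main test, ranged from −8.87 to −0.87 with 1 library left out and kept its sign. All 457 values of 20 named genes under the alternatives kept their direction. Of the 20, 19 were chosen for a 2-fold gap between all libraries of the groups, so their signs could hardly change. At this depth, 3 reads are worth between 0.017 and 0.042 CPM.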
